A study of Mus musculus with 4 samples.

Results

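The genes described here belong by name to families of ubiquitin ligases, conjugating enzymes and deubiquitinases. Some members are not such enzymes themselves, as given below. Their levels are those in the liver of mice fed a selenium-deficient or a selenium-adequate diet. The genes were taken by symbol from the deposited table of 7000 genes: names that start with Ube2 or Fbx, or with Cul, Rnf, Trim or Usp and a digit, without Usp18. This gave 132 genes, which are 17 Ube2, 4 Cul, 28 Fbx, 37 Rnf, 21 Trim and 25 Usp genes. Liver RNA came from FVB/N wild-type males that received, from weaning and for 6 weeks, a Se-deficient diet with sodium selenite added at 0 ppm Se (0 Se, 2 mice) or 0.1 ppm Se (0.1 Se, 2 mice). Each mouse gave 1 RNA-Seq library after removal of rRNA. The table has 0 columns for single mice. It gives 1 mean level per gene over the 4 libraries of both diets, as log2 CPM, where CPM is the read count of a gene scaled to the mapped reads of its library. Its other values are the authors' own comparison of the diets, which was not used. The values below are therefore levels in liver over both diets, with no error between mice, and no difference between the diets is reported. Depth per library was not analysed here.

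Ubiquitin is activated by an E1 enzyme, passed to a cysteine of a conjugating enzyme (E2), and joined to the target with the help of a ligase (E3). RING-type ligases, such as the Rnf and Trim proteins, hold the loaded conjugating enzyme beside the target. Cullins are the scaffolds of multi-subunit RING ligases, in which F-box proteins select the target of the Cul1 complex. Ubiquitin-specific proteases (Usp) remove ubiquitin again. In liver this system marks proteins for the proteasome, including misfolded proteins of the endoplasmic reticulum, and sets the stability of receptors and signalling proteins.

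The symbols were first checked against the sequence features of each enzyme class in GENCODE vM1 gene models (NCBIM37, the assembly of mm9), to which all 132 genes were matched. The conjugating site was searched in the translated coding sequence as histidine, proline or cysteine, asparagine, and a further cysteine after 2 to 15 residues. It was found in 10 of the 17 Ube2 genes, against 1.70% of the 20411 genes searched. The genes without it were Ube2j1, Ube2o, Ube2q1, Ube2z, Ube2v1, Ube2v2 and Ube2cbp. Ube2v1 and Ube2v2 are known as variants that lack the catalytic cysteine and work as partners of Ube2n. Ube2cbp encodes a protein that binds a conjugating enzyme, not a conjugating enzyme itself. A RING-like spacing of cysteines and histidines was found in 32 of 37 Rnf and 20 of 21 Trim genes, against 1.27% of all genes. The stretch around the catalytic cysteine of the proteases was found in 21 of 25 Usp genes, against 1.14%. It was not found in Usp40, Usp53, Usp54 and Usp6nl, the last of which encodes a GTPase-activating protein and shares only the name. The neddylation site of cullins was found in 3 of 4 Cul genes, against 0.544% of all genes, and Cul9 also held a RING-like pattern. The cullin without a match was Cul5. Some patterns also matched members of other families. The protease stretch matched Trim2 and Trim3, the conjugating site Fbxo11, Rnf19a and Usp49, and the neddylation site Rnf214. The patterns were set after the sequences of the members had been seen, so these counts are descriptions. A missing match says only that these residues were not in this gene model.

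The coding sequences around the conjugating site are printed for 6 Ube2 mRNAs, since this stretch defines the class. They show how far these 6 mRNAs differ in the bases that reads align to. Ube2d2a, in the same group as Ube2d1, also held the site but its stretch was not compared. Each line is the coding strand of the GENCODE vM1 transcript, 5′ to 3′, 66 bases long. The first capitals are the codons of histidine, proline (cysteine in Ube2e1 and Ube2e2) and asparagine, and the second capitals are the codon of the catalytic cysteine.
Ube2l6: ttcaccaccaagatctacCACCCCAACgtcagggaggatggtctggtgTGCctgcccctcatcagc
Ube2r2: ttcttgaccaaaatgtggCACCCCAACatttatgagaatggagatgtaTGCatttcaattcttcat
Ube2n: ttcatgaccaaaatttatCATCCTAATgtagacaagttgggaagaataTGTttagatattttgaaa
Ube2e2: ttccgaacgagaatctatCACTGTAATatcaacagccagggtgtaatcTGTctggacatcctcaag
Ube2e1: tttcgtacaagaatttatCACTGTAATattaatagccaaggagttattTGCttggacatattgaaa
Ube2d1: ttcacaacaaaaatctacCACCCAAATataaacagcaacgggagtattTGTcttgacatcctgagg

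The cysteine is codon 86 in Ube2l6, 87 in Ube2n, 93 in Ube2r2, 131 in Ube2e1, 139 in Ube2e2 and 85 in Ube2d1. Ube2e1 and Ube2e2, the closest pair of the printed stretches, differed at 16 of the 66 bases. Ube2d1 differed from Ube2e2 at 19 bases and from Ube2e1 and Ube2n at 24 bases each. Over the whole transcript, all 50-base windows of these mRNAs were unique with 2 mismatches allowed, except for Ube2l6 with 90.3%.

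The levels of the 132 mRNAs in liver were first compared among the 6 families. To compare genes of different length, each mean CPM was divided by the mRNA length in kilobases (CPM per kb). Over all members the median was 5.80 CPM per kb, and the middle 50% lay between 2.57 and 12.8 CPM per kb. The median of all 7000 listed genes was 6.19 CPM per kb, with the middle 50% between 2.09 and 18.03. The members thus sat in the middle of the listed genes, and their upper part was less extended. Levels above 10 CPM per kb were seen for 38 members, or 28.8%, against 37.5% of the listed genes. Levels under 1 CPM per kb were seen for 15 members, or 11.4%, against 12.2%. The mRNA of Apoa1, an apolipoprotein made by hepatocytes, was far higher, at 7619 CPM per kb.

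The Ube2 genes had the highest family median, 13.2 CPM per kb, followed by the Rnf genes with 7.86, the Usp genes with 5.99, the cullins with 4.81, the Fbx genes with 3.91 and the Trim genes with 3.32. With members under 5 CPM left out, the Fbx median was 6.05 CPM per kb and stood above that of the cullins, which stayed at 4.81. The middle 50% of neighbouring families in this order overlapped. The only pair of families whose middle 50% were separate was Ube2, from 7.19 to 21.1 CPM per kb, and Trim, from 1.40 to 5.75 CPM per kb. Of the Ube2 genes, 7 of 17 were in the top 25% of all listed genes, against 0 of 21 Trim genes. The lowest 25% held 2 Ube2 and 7 Trim genes.

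**Figure D1:**
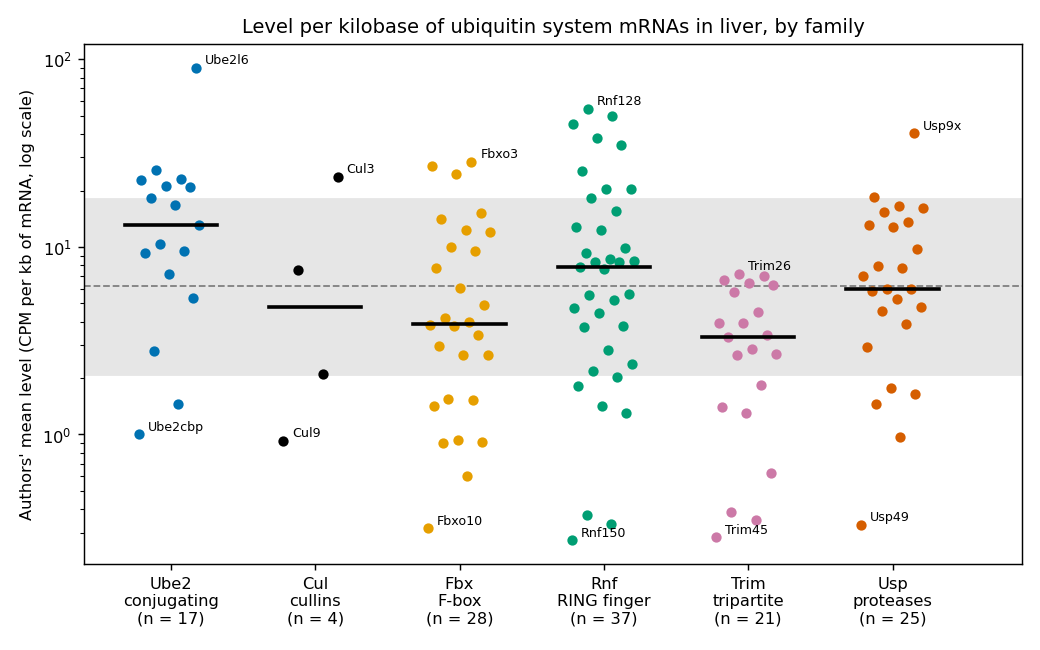
Authors' mean level of each member in CPM per kb of mRNA (log axis), by family; each point is a gene, black bars are family medians, the grey band and dashed line are the middle 50% and the median of all 7000 listed genes, and the highest and lowest gene of each family are named. The Ube2 median of 13.2 CPM per kb is the highest, and all 21 Trim genes lie at or below 7.20 CPM per kb of whole mRNA.

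Among the Ube2 genes, Ube2l6 stood apart per kilobase. Its mRNA, from a gene on chromosome 2 (84638985 to 84650492, 4 exons in the matched transcript), was at 125 CPM, or 90.4 CPM per kb, the highest of all members per kilobase. Ube2l6 carries ISG15, the interferon-induced ubiquitin-like protein, while the mRNA of Isg15 itself was at 4.09 CPM per kb. Ube2r2, a partner of cullin ligases, followed at 25.8 CPM per kb and Ube2v1 at 23.2 CPM per kb. Ube2f, which conjugates the cullin modifier NEDD8, was at 22.7 CPM per kb. Per kilobase, the gap from Ube2l6 to these genes is wider than the whole spread among them, although no error between mice can be set on it. They were picked as the next highest per kilobase, which keeps their spread small. In CPM the gap is not wider, with Ube2r2 at 85.5, Ube2v1 at 45.1 and Ube2f at 31.0 CPM.

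Among Ube2 genes of the same pathway or group, some had unequal levels and others similar ones. Ube2n, which builds ubiquitin chains joined through lysine 63, was at 13.2 CPM per kb. Its partner Ube2v2 was at 5.37 CPM per kb, below the other partner Ube2v1. In CPM, Ube2n was at 50.7, Ube2v1 at 45.1 and Ube2v2 at 31.7. Ube2j1 and Ube2g2, which serve protein degradation at the endoplasmic reticulum, were at 18.2 and 16.8 CPM per kb. Within the Ube2d group the mRNA of Ube2d2a was at 21.1 CPM per kb and that of Ube2d1 at 2.80. Ube2e2 and Ube2e1 were closer, at 9.32 and 7.19 CPM per kb. The lowest were Ube2o, a large enzyme that combines conjugating and ligase activity, at 1.46 CPM per kb, and Ube2cbp at 1.002.

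Of the 8 cullin genes annotated, 4 were listed. Cul3, the scaffold for BTB-domain adaptors such as Keap1, was on chromosome 1 (80261498 to 80337055) and had the highest level of them, 23.7 CPM per kb. Cul5, which works with SOCS-box adaptors, was at 7.51 CPM per kb. Cul7 and Cul9 were at 2.11 and 0.924 CPM per kb. Both lie on chromosome 17, 103949 bases apart, between 46637554 (the start of Cul9) and 46801313 (the end of Cul7). Per kilobase the listed cullins thus ran over a 25.6-fold range. Cul1, Cul2, Cul4a and Cul4b were not among the listed genes, so their levels are not given here.

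The F-box genes ran from 0.315 to 28.5 CPM per kb. Fbxo3 was highest at 28.5 CPM per kb, from a gene on chromosome 2, and Fbxo21 was at 26.9, Fbxo9 at 24.4 and Fbxo8 at 15.2. All 4 belong to the Fbxo group, whose proteins have no named substrate-binding repeat. The Fbxw genes, whose proteins bind targets through WD40 repeats, were closer to one another. Fbxw5 was at 9.997 CPM per kb, Fbxw11 (a beta-TrCP protein) at 9.47, Fbxw9 at 7.74 and Fbxw7, which recognises cyclin E and Myc, at 2.96. The 5 Fbxl genes, with leucine-rich repeats, were all low, between 0.903 and 3.77 CPM per kb. Fbxo32, the muscle atrophy ligase atrogin-1, was at 0.599 CPM per kb, and Fbxo10 was the lowest at 0.315. The shortest and the longest mRNA of all members were both F-box mRNAs. Fbxo36, of 900 bases, was at 3.82 CPM per kb, and Fbxl17, of 16988 bases, was at 1.55.

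The Rnf family was the largest and had the widest range, 200-fold from 0.273 to 54.6 CPM per kb. Rnf128, a membrane-anchored ligase also known as GRAIL from T cells, was at 150 CPM or 54.6 CPM per kb. It lies on the X chromosome (136097855 to 136207684) and has 7 exons in the matched transcript. Rnf181 was at 49.8 CPM per kb, Rnf11 at 45.5 and Rnf125, a regulator of the RNA sensor RIG-I, at 37.9. Pairs that work as one ligase had similar levels in the case of Rnf20 and Rnf40, which together ubiquitinate histone H2B, with 8.58 and 8.30 CPM per kb. Rnf185 and Rnf5, ligases of the endoplasmic reticulum membrane, were also close, at 12.8 and 12.3 CPM per kb. Rnf31, the catalytic subunit of the linear chain ligase, was at 2.02 CPM per kb. At the low end were Rnf219 at 0.372, Rnf144a at 0.334 and Rnf150 at 0.273 CPM per kb.

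Over the whole mRNA length, no Trim gene was above 7.20 CPM per kb. Trim26 was at 7.20 CPM per kb, Trim25, an activator of RIG-I, at 7.03, Trim41 at 6.65 and Trim12c at 6.42. Only 36.9% of 50-base windows of Trim12c are found in no other gene, and per kilobase of these windows its level was 17.4 CPM per kb, the highest of the family. Trim7, with the shortest mRNA at 1366 bases, was at 3.95 CPM per kb. Trim21, the cytosolic antibody receptor, was at 4.53 CPM per kb. Trim33, with the longest mRNA of the family at 8868 bases, was at 3.38 CPM per kb. The lowest were Trim30d at 0.388, Trim6 at 0.351 and Trim45 at 0.283 CPM per kb. Of the 21 Trim genes, 4 had a mean under 2 CPM, and a level based on so few reads is the least certain.

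Among the proteases, Usp9x was far above the rest. Its mRNA of 11902 bases, from the X chromosome (12648624 to 12759008, 45 exons), was at 481 CPM or 40.4 CPM per kb. The next were Usp10 at 18.4 CPM per kb, Usp33 at 16.5, Usp7, which acts on p53 and its ligase Mdm2, at 16.1 and Usp8, an endosomal protease, at 15.3. Usp16 and Usp22, which remove ubiquitin from histones, were at 13.5 and 5.29 CPM per kb. The closely related Usp12 and Usp46 were at 7.92 and 5.85 CPM per kb. Usp34, the longest mRNA of the family at 12200 bases, was at 5.99 CPM per kb. Usp54 was at 0.965 and Usp49 at 0.329 CPM per kb, the lowest of the family.

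The members were then compared with listed mRNAs of similar length, because their mRNAs are long. Their median length was 3763.5 bases, against 2959.5 bases for all listed genes. The listed genes were divided by length into 20 classes of 350 genes each, and the median log2 CPM of the class was subtracted from that of each member. Here the level is the CPM of a gene, which is its share of the reads, and is not divided by length. The class medians lay between 14.6 and 32.5 CPM, the highest in the class of the longest mRNAs. Of the 132 members, 71 were above the median of their class and 61 below, or 53.8% above where all listed genes give 50% by construction. The median difference was 0.14 on the log2 scale, a ratio of 1.11. With the 21 members under 5 CPM and all other listed genes under 5 CPM left out, 55 of 111 members were above and the median difference turned to -0.067. As a whole, the members were thus near the median of mRNAs of their length, and the sign of the small difference depended on that filter.

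**Figure D2:**
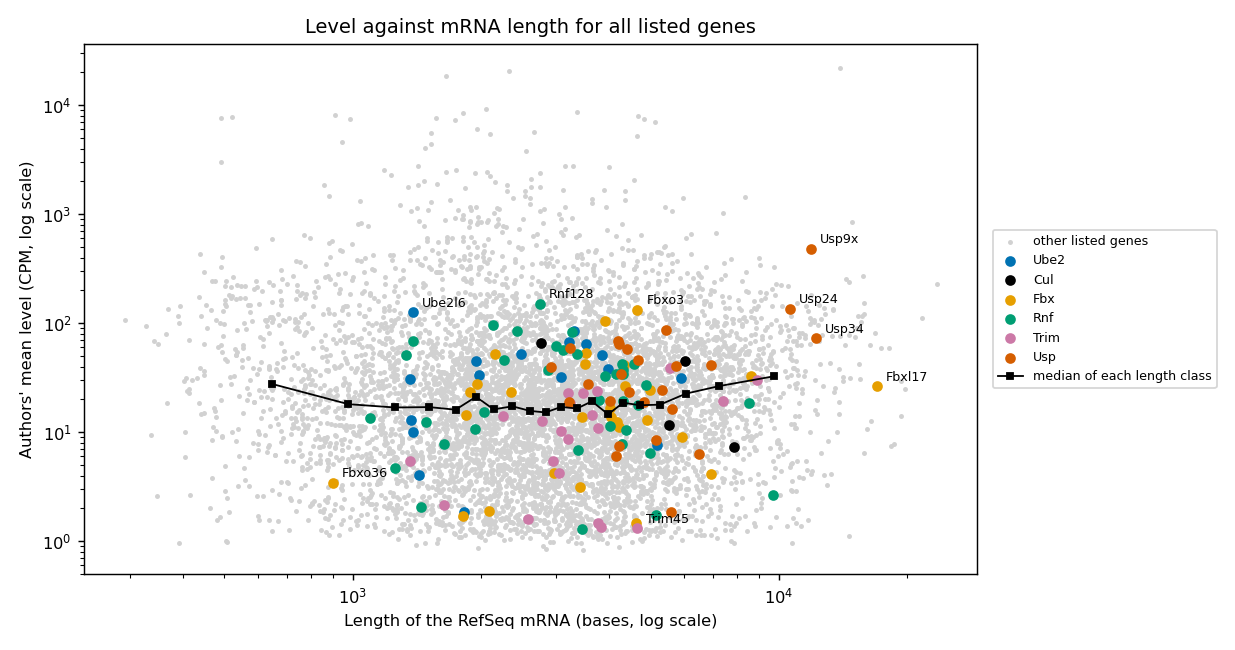
Authors' mean level in CPM against the length of the RefSeq mRNA in bases (both log axes); grey points are other listed genes, coloured points the members by family, and black squares the median of each of 20 length classes. Members lie on both sides of the class medians, which run from 14.6 to 32.5 CPM, and Usp9x at 481 CPM stands above all other members.

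The members were less spread around their class medians than listed genes in general. Differences within 2-fold either way were found for 57 members, or 43.2%, against 36.3% of all listed genes. This share was 57.1% of the Trim and 50% of the Fbx genes. It was 40% of the Usp, 37.8% of the Rnf, 35.3% of the Ube2 and 25% of the Cul genes. Levels more than 4-fold above the class median were found for 13 members, or 9.85%, against 16.7% of the listed genes. More than 4-fold below were 19 members, or 14.4%, against 18.7%. These are counts over genes, which are not independent replicates, and no test was made of them. The shares of all listed genes were not weighted to the lengths of the members.

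By family the direction was not the same. Above the class median were 19 of 25 Usp genes and 12 of 17 Ube2 genes, with median differences of 0.64 and 0.90 on the log2 scale. The Rnf genes were divided, 21 above and 16 below, with a median difference of 0.04. Of the Fbx genes, 12 of 28 were above, with a median difference of -0.13. All 5 Fbxl genes were below, but Fbxl20, at -0.0018, lay almost on its class median. Against the mRNAs nearest in length instead of the class, Fbxl20 was above, at 0.177, and the other Fbxl genes stayed below. Only 5 of 21 Trim genes were above their class median, with a median difference of -0.74, or 0.601 of the class median. Per kilobase, the Usp family was near the median of all listed genes. In CPM, not divided by length, it was above the median of mRNAs as long as its own. The Usp mRNAs had a median length of 4685 bases, against 2483 bases for the Ube2 mRNAs.

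**Figure D3:**
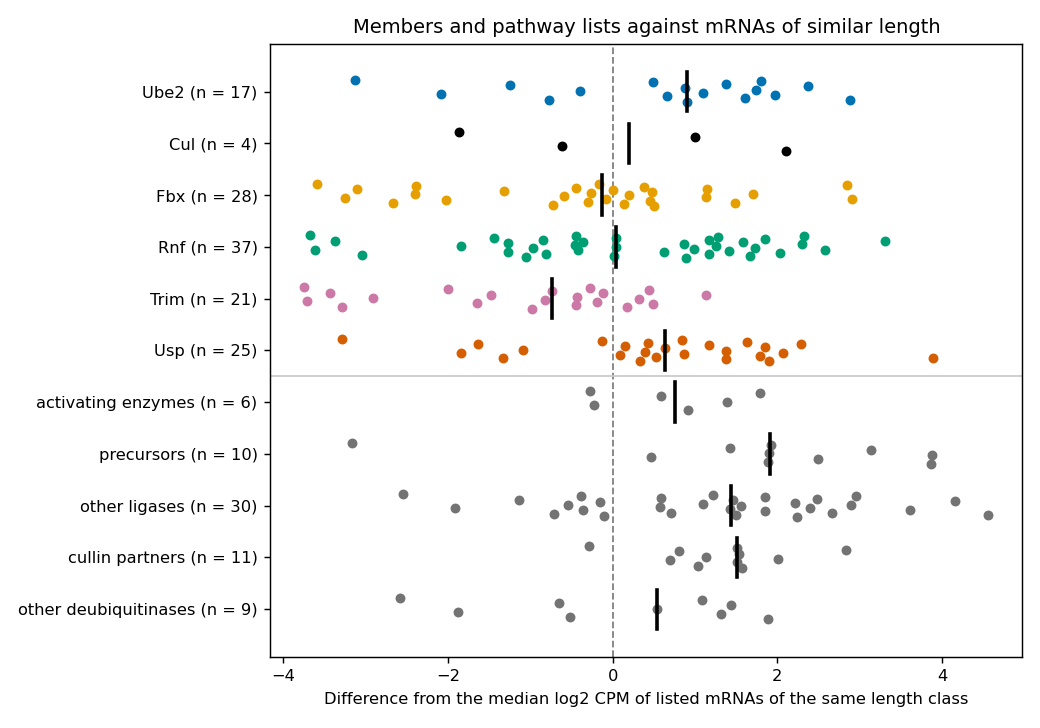
Difference of each gene from the median log2 CPM of its length class, for the 6 member families (coloured) and for 5 lists of other ubiquitin system genes (grey); each point is a gene, black bars are medians and the dashed line is the class median. Usp (0.64) and Ube2 (0.90) medians lie above 0 and the Trim median (-0.74) below it.

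The 6 members furthest above mRNAs of their length were Usp9x (14.8-fold over its class median), Rnf128 (9.91-fold), Fbxo3 (7.53-fold), Ube2l6 (7.39-fold), Fbxo21 (7.20-fold) and Rnf11 (6.00-fold). They come from 4 families and range in mRNA length from 1387 bases for Ube2l6 to 11902 bases for Usp9x. The 6 furthest below were Trim45, Trim30d, Rnf219, Rnf150, Fbxo10 and Trim6. These were at 0.0746 to 0.0922 of their class median. All 6 were between 1.29 and 2.64 CPM, near the lower end of the listed genes, whose lowest mean was 0.830 CPM.

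Other genes of the pathway, taken from lists written from general knowledge, were mostly higher. All 10 precursors of ubiquitin and ubiquitin-like proteins were listed, with a median of 65.2 CPM per kb. Rps27a, in which ubiquitin is fused to a ribosomal protein, was at 298 CPM per kb, and the polyubiquitin gene Ubb at 81.4. Both mRNAs encode near-identical ubiquitin units, so their levels from unique alignments are uncertain. Nedd8 was at 63.7 CPM per kb. Of 8 E1 enzyme genes, 6 were listed, with a median of 13.0 CPM per kb, and the lowest was Uba7, which activates ISG15, at 4.60. Uba3 and Nae1, the 2 subunits of the NEDD8-activating enzyme, were at 18.5 and 16.8 CPM per kb. Uba1 was not among the listed genes.

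The cullin partners and regulators had a median of 30.8 CPM per kb over the 11 listed of 26, above each of the 4 listed cullins. Rbx1, the RING subunit that binds the conjugating enzyme, was at 21.3 CPM per kb. Cops5, the subunit of the COP9 signalosome that removes NEDD8 from cullins, was at 54.9 CPM per kb, and Cand1, which exchanges substrate receptors, at 11.5. Among ligases outside the 6 families, 30 of 47 were listed, with a median of 9.47 CPM per kb, and 21 of the 30 were above the median of their length class. Nedd4, a ligase of the HECT type, was at 76.9 CPM per kb. Of the deubiquitinases outside the Usp family, 9 of 22 were listed, with a median of 8.59 CPM per kb. Psmd14, the deubiquitinase of the proteasome, was highest at 40.7 CPM per kb.

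The levels rest on reads that aligned to 1 gene, so mRNAs with near-identical copies lose reads. This was measured as the share of 50-base windows of each member's transcript that matched no other gene's transcript with up to 2 mismatches. All windows were unique in 114 members, and at least 99% in 123. The matched transcript was within 10% of the listed length in 115 members. For the rest, the windows may not stand for the whole listed mRNA. Among these were Fbxl17, with 4925 bases against 16988 listed, and Fbxo32, with 2722 against 6936. Both were counted as fully unique. The unique share was under 95% in 5 members. Trim12c was lowest with 36.9%, since 61.1% of its windows matched Trim5 and 17.8% matched Trim12a. The others were Trim30a with 85.8%, Ube2l6 with 90.3%, Ube2d2a with 94.5% and Trim30d with 94.99%. Per kilobase of unique windows, the level of Trim12c was 17.4 instead of 6.42 CPM per kb, which would place it above every other Trim gene. That of Trim30a was 3.35 instead of 2.87 and that of Ube2l6 100.1 instead of 90.4 CPM per kb.

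For the pairs Trim12c and Trim5, and Trim30a and Trim30d, the first coding stretch found that differs at 1 or 2 bases is printed. It is an example of the shared windows and does not stand for the whole mRNAs. Of the windows of Trim30a, 11.3% matched Trim30d, and of those of Trim30d, 0.9898% matched Trim30a. These shares need not be equal, because each gene's matched transcript was compared with the longest transcript of the other gene. The transcript matched to Trim30d had 3282 bases against 3757 listed, so the unique share of Trim30d is uncertain. Each line is the coding strand in GENCODE vM1, 5′ to 3′, 60 bases long, with the 2 bases that differ within each pair in capitals. All 4 genes lie on chromosome 7.
Trim12c: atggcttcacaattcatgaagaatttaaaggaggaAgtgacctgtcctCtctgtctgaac
Trim5: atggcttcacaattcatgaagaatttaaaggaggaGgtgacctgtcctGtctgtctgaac
Trim30a: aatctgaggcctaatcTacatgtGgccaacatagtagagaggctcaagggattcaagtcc
Trim30d: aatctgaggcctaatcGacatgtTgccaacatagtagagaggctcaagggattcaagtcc

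The stretch of Trim12c and Trim5 is the start of both coding sequences, bases 1 to 60. That of Trim30a and Trim30d runs from base 196 to base 255 of each. A read of 50 bases from within either stretch matches both genes of the pair when 2 mismatches are allowed, and such a read counts for neither gene if only unique alignments are kept. The order of Trim12c, Trim30a and Trim30d among the Trim genes is therefore uncertain.

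**Figure D4:**
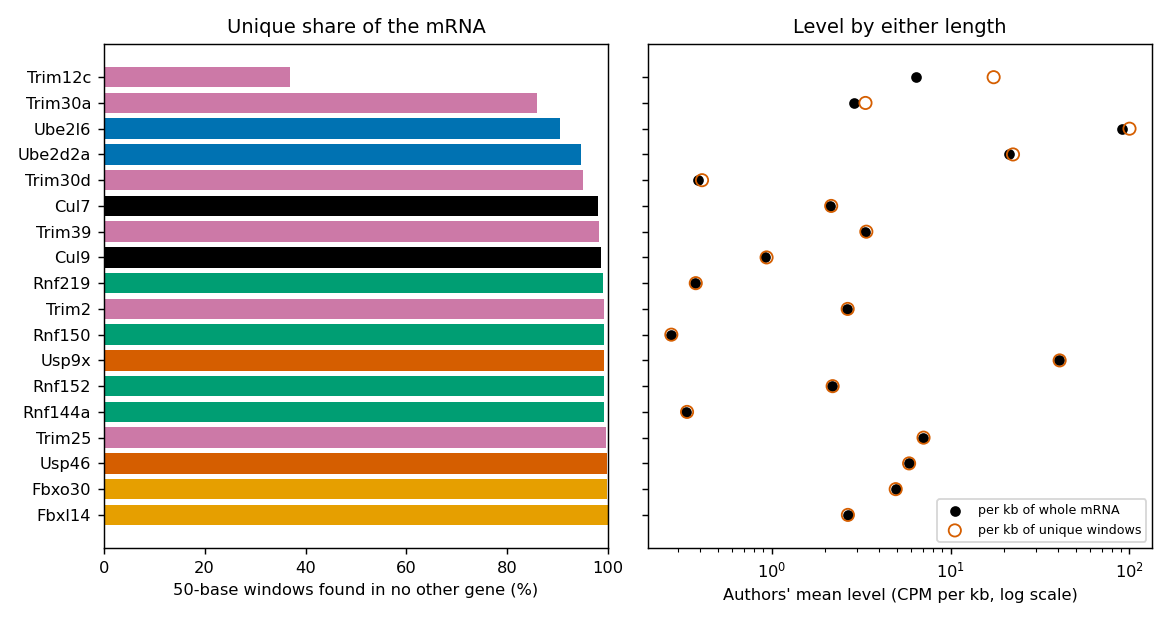
Left, the share of 50-base windows that match no other gene's transcript with up to 2 mismatches, in percent, for the 18 members below 100%, coloured by family; right, the authors' mean level of the same genes in CPM per kb (log axis), over the whole mRNA (filled) and over unique windows only (open). Trim12c moves from 6.42 to 17.4 CPM per kb, Ube2l6 from 90.4 to 100.1 and Trim30a from 2.87 to 3.35.

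The listed genes are those with the smaller p-values in the authors' comparison of the diets, and the listing ends before the largest ones. A gene that is not listed failed the authors' filter on low counts, had a larger p-value or stands under another symbol. Its level is not known here. The other pathway genes and the markers were looked up by exact symbol, so their counts of listed genes may be too low. Of the 315 protein-coding symbols of these families in GENCODE vM1, 132 or 41.9% were listed, against 30.7% of all protein-coding symbols. The share was lowest for the Trim genes, with 21 of 67, and highest for the cullins and the Usp genes, with 4 of 8 and 25 of 50. The medians above are those of listed genes and not of whole families. In bulk tissue, fewer cells of a type and less RNA per cell cannot be told apart. Of the markers of other liver cells, 6 of 8 symbols for Kupffer cells and macrophages were listed. Their levels were 1.56 (Cd163) to 74.8 CPM per kb (Clec4f), with a median of 15.1. The 8 symbols include Adgre1 and Emr1, which name the same gene, listed as Emr1. Of 5 markers of sinusoidal endothelium 3 were listed, at 8.52 to 16.4 CPM per kb, and all 4 of stellate cells, at 1.03 to 11.1 CPM per kb. Of 6 hepatocyte markers, Apoa1 was listed, and of 4 lymphocyte markers, Ptprc at 3.93 CPM per kb. From which cells the mRNAs of the members came was not tested.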

How the data were processed

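RNA-Seq libraries of 4 mouse livers (2 mice for each diet) were prepared by the authors from rRNA-depleted total RNA and sequenced for 50 cycles. Alignment by the authors used Bowtie and RefSeq mRNAs (mm9), per the labels and the methods, keeping unique alignments with up to 2 mismatches and the longest isoform of each gene. Genes over 1 CPM in 3 or more samples were compared by the authors in edgeR. The sources used here give no versions, scaling or prior count. The log2 mean CPM over all libraries and the mRNA length were used as deposited by the authors. The other columns (log2 fold change, p-value and FDR between the diets) are the authors' own results and were not used, except that the order and end of the p-values were read to learn which genes are listed.

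No count per mouse was analysed, so there is no error, no test and no self-made comparison of the diets. CPM was obtained as the power of 2 of the deposited log2 value, and divided by length for CPM per kb. Length classes, nearest mRNAs and window matching were tested on simulated data. Transcripts were matched by symbol (131 members) or synonym (1), and 115 were within 10% of the listed length. Windows were compared, on the sense strand, with the longest GENCODE vM1 transcript of genes that RefSeq (GRCm38.p6 table) gives an mRNA.

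Named genes are the listed cullins, the 4 highest and 2 lowest per kilobase of each other family, the shortest and longest mRNA of each, the 6 furthest above and below their length class, and members that share a name stem; other genes were named after their values were seen. Some genes that this rule or the lists name are not reported here. The members and lists were chosen with earlier results of these data known. Python 3.11.15, numpy 2.4.6, pandas 2.3.3 and matplotlib 3.10.9 were used.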

Additional observations from a re-analysis of the deposited data

How the results depend on the processing

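The count of members above the median of their length class was 71 of 132, 72 with 10 classes, 71 with the 200 mRNAs nearest in length and 71 with the members left out of the classes. With a minimum of 5 CPM it was 55 of 111. The median difference of 0.14 (log2) was 0.16 with 10 classes, 0.23 with the nearest 200 mRNAs, 0.15 without the members in the classes, and -0.067 with the minimum of 5 CPM, which tests fewer genes and removes 21 members. With that minimum the family medians were 16.8 CPM per kb for Ube2, 8.37 for Rnf, 6.50 for Usp, 6.05 for Fbx and 3.95 for Trim genes, and that of the cullins did not change, so the Fbx genes moved above the cullins. Not divided by length, the medians were 33.8 CPM for Usp, 33.3 for Ube2, 28.4 for Cul, 19.6 for Rnf, 15.5 for Fbx and 10.8 for Trim genes, so the Usp genes and cullins moved up in the order. With the 10 members that share a name stem (such as Ube2d1 and Ube2d2a) left out, the median was 16.8 CPM per kb for Ube2 and 3.38 for Trim genes. Per kilobase of unique windows, an alternative chosen after seeing the data, it was 4.83 for cullins and 3.38 for Trim genes. In each setting that divided by length, the Trim genes had the lowest and the Ube2 genes the highest family median. Not divided by length, the Trim median was still the lowest, but the Usp median was slightly above that of Ube2. No paired analysis was possible because the columns used carry no single mice, and no mouse could be left out for the same reason. Depth limits the 11 members under 2 CPM most.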

Other observations

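Some members lie near one another in the genome (NCBIM37, within 200 kb) and had unequal levels. Fbxo6, which binds glycoproteins, and Fbxo44 are 660 bases apart on chromosome 4, and their mRNAs were at 14.1 and 0.932 CPM per kb. Rnf40 was at 8.30 and Fbxl19, further along chromosome 7, at 0.912 CPM per kb. Rnf114 and Ube2v1 on chromosome 2 were close in level, at 20.5 and 23.2 CPM per kb. The Trim cluster on chromosome 7 holds 5 of the listed Trim genes between 111367307 and 111656363. In the order of the chromosome these were Trim6 at 0.351, Trim34a at 0.620, Trim12c at 6.42, Trim30a at 2.87 and Trim30d at 0.388 CPM per kb. Per kilobase of unique windows, Trim12c was at 17.4 and Trim30a at 3.35 CPM per kb. The gene models of Trim34a and Trim12c overlap by 1939 bases on opposite strands. The libraries were prepared by the authors with a stranded kit, and the share of reads from the overlap was not measured.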
